A study of Mus musculus with 2 samples.

Results

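The genes described here are 8 long noncoding RNAs of mouse pancreatic islet cells, namely Snhg11, Meg3, Malat1, Neat1, A330069E16Rik, Gm30173, Gm12216 and Gm17767. They were found by symbol in a table of 27998 genes, and each symbol matched 1 row. The genes were chosen by their measured levels in these libraries, which were already known to differ between cell types or genotypes or to be high, so every value below is a description and no member was tested. Islets came from C57BL/6 mice at postnatal day 70 (10 weeks of age). One group was wild type and the other carried a transgene for the microRNA miR-503 that the labels call specific to beta cells. The promoter of the transgene and the number of mice behind each library are not stated in the labels. Dissociated islet cells were captured in droplets and the 3' ends of polyadenylated RNAs were counted as unique molecular identifiers (UMIs, 1 per captured molecule). Each genotype was represented by 1 library, so a difference between genotypes is a difference between 2 libraries, and the intervals given are 95% intervals for counting error only.

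A long noncoding RNA is a transcript that is not known to be translated into a protein. Malat1 and Neat1 stay in the nucleus, where Malat1 gathers in the nuclear speckles that store splicing factors and Neat1 forms the scaffold of paraspeckles, bodies that hold RNA-binding proteins. Meg3 is transcribed from the maternal copy of the imprinted Dlk1-Dio3 locus, which also encodes many microRNAs and is active in endocrine and neuronal cells. Snhg11 is a host gene of small nucleolar RNAs, which are cut from its introns, and is known mainly from neurons. The other members carry provisional names, and no function is stated for them here.

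After filtering, 4339 wild type and 3977 transgenic cells were kept, with a median of 21496 and 24583 UMIs. Cells were classed by hormone share. Beta cells had at least 25% of UMIs from Ins1 and Ins2, alpha cells at least 3% from Gcg, delta cells at least 2% from Sst and gamma cells at least 3% from Ppy. The wild type library gave 3194 beta, 399 alpha, 76 delta, 116 gamma and 199 non-endocrine cells, and the transgenic library 2624, 583, 99, 103 and 164. Cells past more than 1 threshold, 231 wild type and 356 transgenic, were kept apart, and so were 124 and 48 endocrine cells below every threshold. The delta threshold was passed by 196 wild type and 343 transgenic cells, and the gamma threshold by 298 and 380. The delta and gamma classes thus hold only a minority of the cells past their own threshold. Markers of the named hormone class were at their highest summed level in that class in both libraries. These sums include the hormones that defined the classes, so the outcome was fixed in advance and is no check of cell identity. Insulin transcripts made up 50.9% of beta-cell UMIs in the wild type library and 60.2% in the transgenic library. Levels are therefore given as counts per 1000000 scaled by the trimmed mean of M-values over the 10 class-by-library sums (CPM), or, where stated, as UMIs per 1000000 UMIs outside the hormone genes (non-hormone CPM). Scaling to all UMIs moves the median gene of beta cells to -0.33 on the log2 scale (transgenic over wild type), against -0.01 with the scaling used. The transgenic library also held cells with Xist, the transcript of the inactive X chromosome of females: 541 cells (13.6%), against 12 (0.277%) in the wild type library. A UMI of 1 of 4 Y-linked genes was found in 74.2% of transgenic and 81.6% of wild type cells, so sex and genotype differ together between the libraries, and key ratios are repeated in cells with a Y-linked UMI and no Xist. The libraries shared 25 barcodes.

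The sequences below are shown because the transgene makes a microRNA that pairs through its seed, and because the 3' end of Malat1 is of an unusual kind and 3' ends were counted. The first is mature mmu-miR-503-5p from RefSeq, written as RNA with bases 2 to 8, the seed, in capitals. The next lines are 30-base windows of the longest GENCODE M21 transcripts of the 3 members that hold the complement of that seed, CGCTGCT, in capitals, searched on the sense strand.
mmu-miR-503-5p: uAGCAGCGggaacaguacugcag
Snhg11: tgccgtggactcCGCTGCTggcgctccgca
Meg3: cctgtctacactCGCTGCTttccttcctca
Neat1: cacccgacctgaCGCTGCTctgagaggctc
The matches begin at base 2237 of Snhg11, base 1061 of Meg3 and base 14089 of Neat1. Their transcripts are long (5864, 14548 and 20771 bases), and of the 7040 mouse transcripts of at least 5000 bases, 30.9% hold such a match. Among all 141767 transcripts the share was 9.63%. No match was found in the longest transcript of the other 5 members, which says only that these letters are not in it.

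The annotated Malat1 transcript is 1 exon of 6983 bases at chr19:5795690-5802672 (GRCm38, minus strand). Malat1 is known to end without a usual poly(A) tail: its 3' end is cut beside a tRNA-like element and is protected by a triple helix of U-rich and A-rich stretches. The 122 bases at chr19:5795968-5796089 are shown with 3 T-rich stretches and the run of 12 A in capitals. Capitals mark letter patterns only, so they do not show which stretches are strands of the helix. The end of the middle T-rich stretch, with the bases after it, is the reverse complement of bases just before it.
Malat1: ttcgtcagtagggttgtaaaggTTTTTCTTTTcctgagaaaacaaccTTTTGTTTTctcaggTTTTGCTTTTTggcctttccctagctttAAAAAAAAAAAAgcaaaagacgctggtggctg
The run of A spans bases 6674 to 6685 of the transcript, 298 bases before its annotated end. An A run of at least 10 bases is found in 31.9% of transcripts of at least 5000 bases. Meg3 holds 6 such runs, the longest of 16 bases, and the other 6 members hold none. Whether UMIs were primed at these runs was not tested.

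Members at least 1.5-fold apart between genotypes with at least 50 UMIs were 2 of 8 in beta cells, Snhg11 and Gm30173, where 10.3% of 12906 genes were that far apart. In alpha cells they were 2 of 6, Snhg11 and Gm12216 (7.57% of genes), in delta cells 1 of 4 (8.03%) and in gamma cells 1 of 6 (10.2%), Snhg11 in both. Non-endocrine cells gave 3 of 4, Malat1, Neat1 and Gm12216, all lower, where 40.4% of genes were 1.5-fold apart. Between alpha and beta cells 4 of 8 were 2-fold apart in both libraries, Snhg11 higher and Neat1, Gm30173 and Gm17767 lower in alpha cells, against 20.2% of genes in the wild type and 23.1% in the transgenic library. As shares of all UMIs the count was 6 of 8: Meg3, A330069E16Rik and Gm12216 joined Snhg11 above beta cells, Gm30173 and Gm17767 stayed below, and Neat1 was no longer 2-fold apart. Since these values took part in choosing the genes, nothing is read from the counts.

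**Figure D1:**
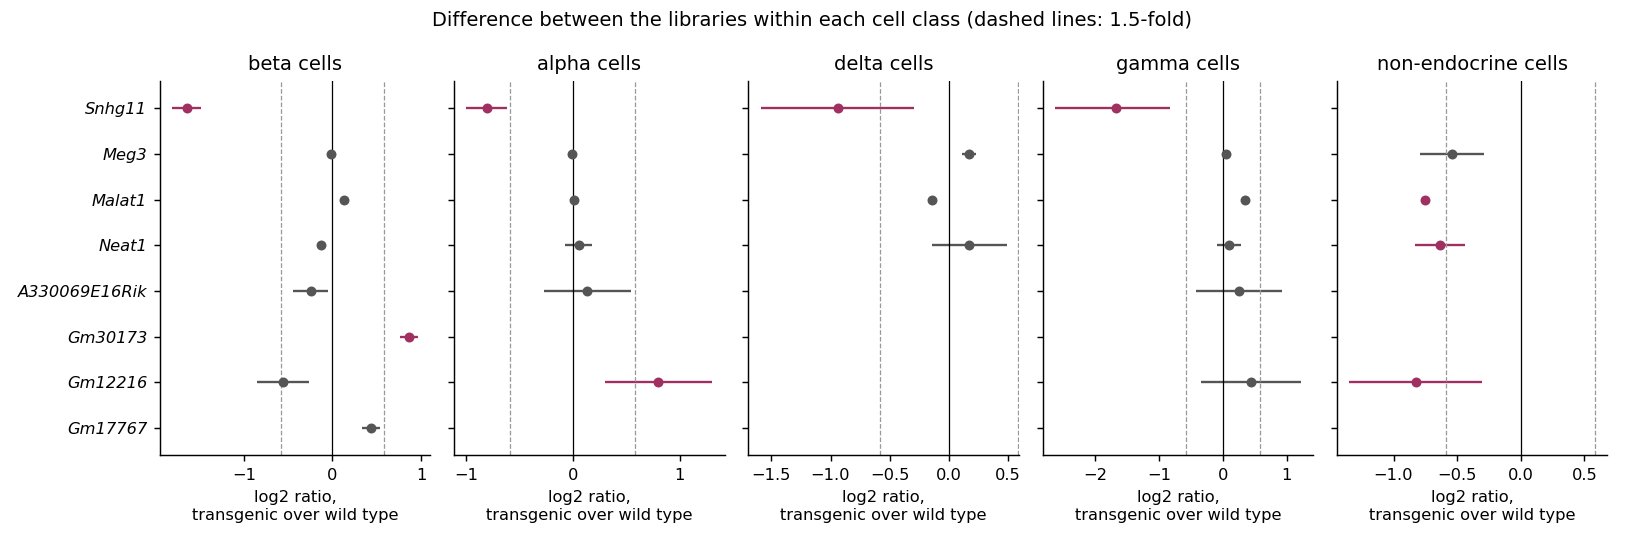
Log2 ratio of transgenic over wild type CPM for the members with at least 50 UMIs in each of 5 cell classes, 1 library per genotype. Bars are exact conditional binomial 95% intervals, dashed lines mark 1.5-fold, and red points lie past it; Snhg11 lies to the left in all 4 endocrine classes and Gm30173 to the right in beta cells.

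Snhg11 (chr2:158375638-158386145, plus strand) was the member with the widest difference between genotypes in beta cells. GENCODE lists it as protein coding and RefSeq as a long noncoding RNA. In beta cells 1450 wild type and 385 transgenic UMIs gave levels of 25.1 and 8.04 CPM, 3.13-fold lower in the transgenic library (log2 ratio -1.64, -1.81 to -1.48). In alpha cells the levels were 78.7 and 45.1 CPM, from 537 and 397 UMIs (-0.80, -0.995 to -0.61). Snhg11 was thus lower both in the cells that the transgene is meant for and in alpha cells.

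The delta cells gave 44.6 and 23.3 CPM of Snhg11, from 54 and 35 UMIs (log2 ratio -0.93, -1.59 to -0.29). The gamma cells gave 24.9 and 7.76 CPM, from 61 and 14 UMIs (-1.68, -2.63 to -0.83). Non-endocrine cells had 1 and 5 Snhg11 UMIs, and after thinning each cell to 2000 UMIs outside the hormone genes 0 of 199 and 0 of 164 held one, which allows shares of up to 1.51% and 1.83%. Of the 4584 genes with at least 50 UMIs in each of the 4 endocrine classes, 1 (0.0218%) was at least 1.5-fold lower in all 4 classes of the transgenic library, and that gene was Snhg11. The call in gamma cells rests on 61 and 14 UMIs and ends (-0.15) when cells past more than 1 hormone threshold are placed in the class of their leading hormone, so it holds in all 4 classes only without those cells. In the other direction 2 genes (0.0436%) were at least 1.5-fold higher in all 4, Xist and the class II histocompatibility gene H2-Ab1.

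**Figure D2:**
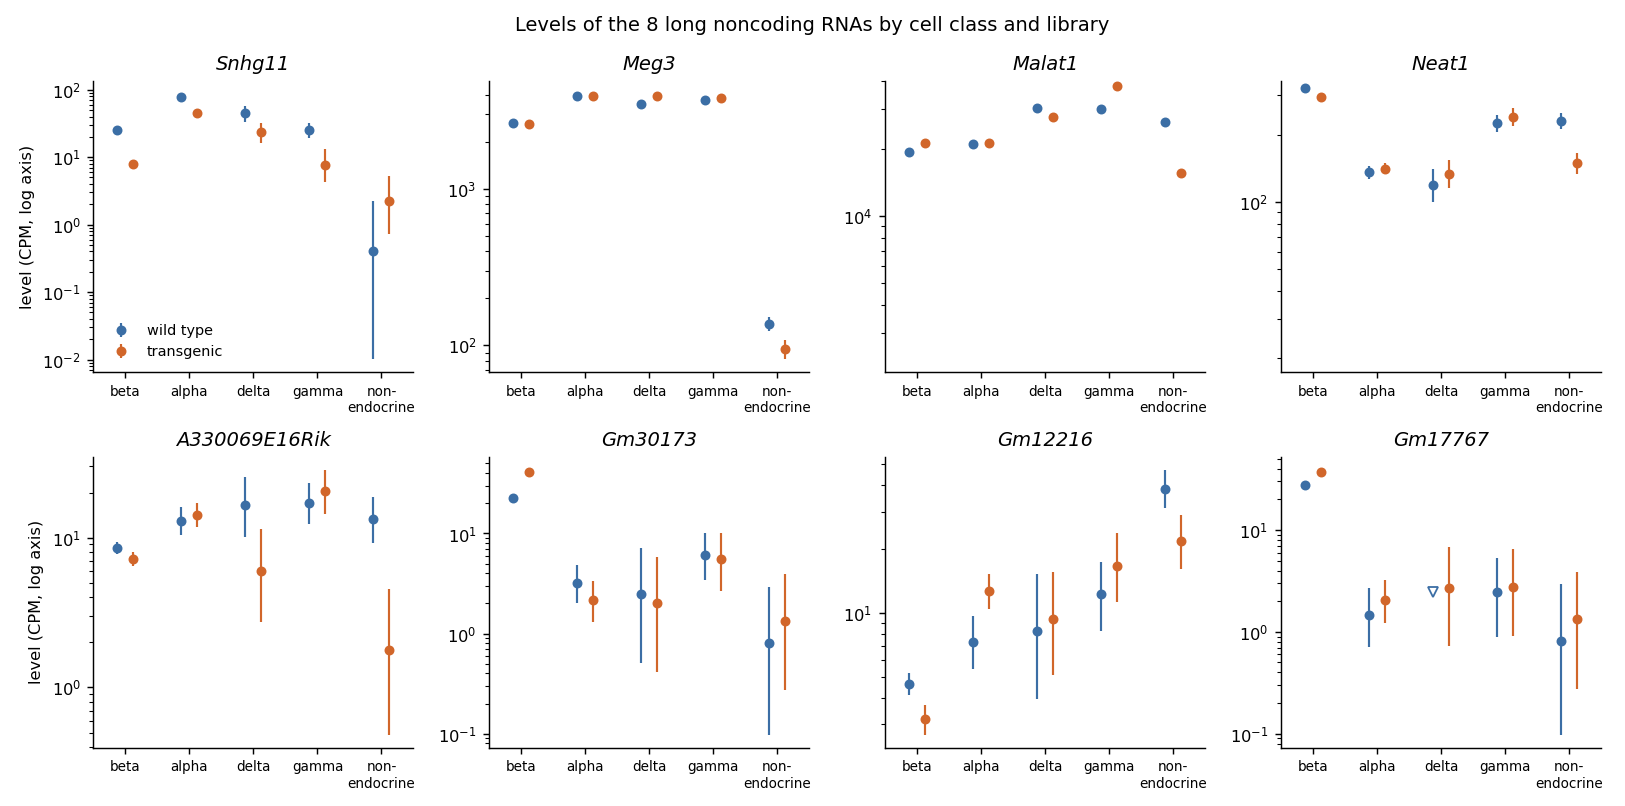
Level of each long noncoding RNA (CPM, log axis, with a separate range for each gene) in 5 cell classes of the wild type (blue) and transgenic (orange) library. Points are 1 library each, bars are exact Poisson 95% intervals, and an open triangle marks a class with 0 UMIs at the level that 3 counts would give; Snhg11 is lower in the transgenic library in beta, alpha, delta and gamma cells.

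The order of Snhg11 levels was the same in both libraries. Alpha cells were highest, at 3.13-fold the beta level in the wild type and 5.61-fold in the transgenic library, followed by delta cells, at 1.78-fold and 2.90-fold. Beta and gamma cells did not differ beyond counting error (25.1 and 24.9 CPM wild type, 8.04 and 7.76 CPM transgenic). As shares of all UMIs, gamma cells held 139% (106 to 179) and 144% (78.8 to 242) of the beta level.

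The share of cells with a Snhg11 UMI differed in the same direction as the level. After thinning to 2000 UMIs, the share among beta cells was 6.54% (5.71 to 7.46) in the wild type library and 1.91% (1.42 to 2.51) in the transgenic one. Without thinning, 21.8% and 7.89% of beta cells held a UMI, at like median depths of 11586.5 and 11525 UMIs outside the hormone genes. In alpha cells the thinned shares were 16.5% and 7.72%, and the unthinned 36.6% and 18.0%. Thinning left out 3 transgenic beta cells and no other cell of a hormone class. A few cells held much of the transcript: cells with at least 5 UMIs numbered 60 (1.88%) and 17 (0.648%) among beta cells, and 40 (10.0%) and 33 (5.66%) among alpha cells. The 1% of beta cells with the most Snhg11 held 19.4% of its UMIs in the wild type and 37.9% in the transgenic library. Counting intervals are therefore narrower than the spread from cell to cell.

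Among cells with a Y-linked UMI and no Xist, a set chosen after the data were seen, Snhg11 in beta cells was 38.0 and 11.9 non-hormone CPM (log2 ratio -1.68, -1.87 to -1.49). In alpha cells the same measure was 104 and 65.4 (-0.67), in delta cells 87.5 and 37.9 (-1.21) and in gamma cells 41.0 and 11.1 (-1.88). All 4 ratios kept their sign in these cells. The 182 transgenic beta cells with Xist and no Y-linked UMI held 13 Snhg11 UMIs (5.66 non-hormone CPM), and the 56 such alpha cells held 31 (48.3 non-hormone CPM).

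Snhg11 was also compared in beta cells of like insulin share. In the 4 bins below 70% insulin the transgenic level was lower, with log2 ratios between -2.58 and -1.48. The bin above 70% held 18 wild type cells with 2 Snhg11 UMIs, and its ratio of -0.31 (-2.40 to 2.85) carries little. Ratios lay between -1.97 and -0.80 over 5 bins of mitochondrial share and between -2.16 and -1.31 over 5 bins of depth. The transgenic level was the lower in all of these bins, but the top mitochondrial bin held 73 and 4 Snhg11 UMIs, and its interval reached past 0 (-0.88, -2.79 to 0.54).

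Cells past several hormone thresholds did not share one direction for Snhg11. Cells past the alpha and gamma thresholds (96 wild type, 103 transgenic) held 54.1 and 93.6 non-hormone CPM, higher in the transgenic library (log2 ratio 0.79, 0.35 to 1.24). Those past the alpha and delta thresholds (31 and 65) held 35.1 and 55.3 (0.66, -0.10 to 1.46). Those past the delta and gamma thresholds (69 and 151) held 130.5 and 23.5 (-2.47), and 1 of these wild type cells held 21 UMIs. These cells can be droplets with more than 1 cell, and whether they are was not tested. When they were placed in the class of their leading hormone, the gamma ratio became -0.15, so the gamma difference rests on leaving them out.

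**Figure D3:**
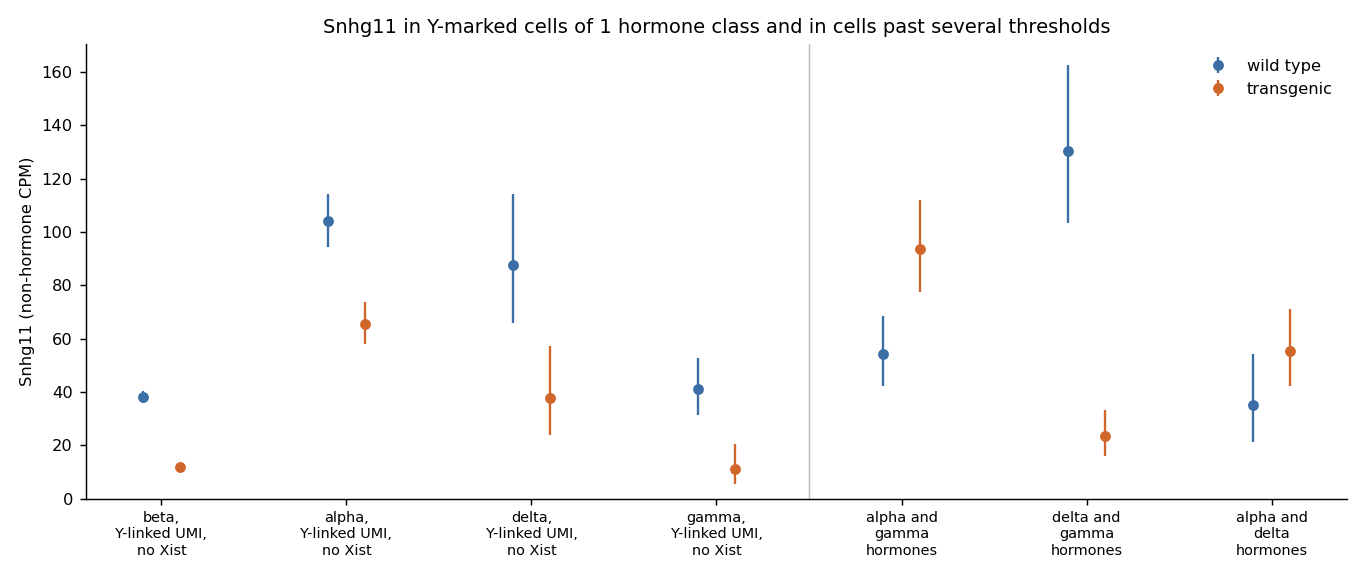
Snhg11 level (non-hormone CPM) in cells with a Y-linked UMI and no Xist of the 4 endocrine classes (left of the line) and in cells past more than 1 hormone threshold (right), wild type blue and transgenic orange. Points are 1 library each with exact Poisson 95% intervals; the transgenic points lie below the wild type in all 4 classes and above it in cells past the alpha and gamma thresholds.

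The next expressed gene and the genes with the most similar pattern lay nearer to 0 than Snhg11. Ralgapb, the next gene on the right at 23703 bases, had a beta log2 ratio of -0.10. Over the 10 class-by-library levels, on log2(CPM + 1), the genes most alike were Fam60a (Pearson r 0.96), Map3k15 (0.95) and Shb (0.95) among 7153 genes. Their beta ratios were -0.42, -0.37 and 0.09. The 10 values share libraries and depth, so r is a description.

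Meg3 (chr12:109541001-109571726, plus strand) marked endocrine cells as a whole. Its levels were 2619 and 2599 CPM in wild type and transgenic beta cells, 3938 and 3922 in alpha cells, 3480 and 3918 in delta cells and 3688 and 3797 in gamma cells. Non-endocrine cells held 137 and 94.3 CPM, 19.1-fold and 27.6-fold below beta cells. Alpha cells exceeded beta cells by 0.59 on the log2 scale in both libraries. As shares of all UMIs the classes lay farther apart, with alpha cells at 211% and 258% of the beta level and delta cells at 264% and 364%. Non-endocrine cells were below beta cells on both scales, at 9.06% and 7.22% of the beta share of all UMIs.

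Between genotypes Meg3 differed by -0.01 in beta cells (log2 ratio, -0.02 to 0.00), -0.01 in alpha cells, 0.17 in delta cells and 0.04 in gamma cells. When scaled to all UMIs, the beta ratio became -0.33, the same shift as for the median gene. Its neighbours in the imprinted locus were not as even. Dlk1, a growth regulator transcribed from the paternal copy, gave 130 and 69 beta UMIs (-0.64), and the microRNA host Mirg gave 3742 and 2611 (-0.25). The beta level of Dlk1 was low, 2.25 and 1.44 CPM, against 88.4 and 44.7 CPM in delta cells (-0.98, -1.45 to -0.53). Mirg in delta cells had a ratio of 0.20 (-0.24 to 0.64). Rtl1 gave 15 and 15 beta UMIs, too few to compare.

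In non-endocrine cells the few Meg3 UMIs were unevenly spread. Wild type macrophages held 173 UMIs, 1 cell of them 95. Endothelial cells held 106 and 49 UMIs, 125 and 217 CPM, which is higher in the transgenic library (log2 ratio 0.79, 0.27 to 1.29), against -0.54 for all non-endocrine cells. Free RNA from the many endocrine cells can give such counts, and how much it gave was not tested. The genes most like Meg3 over the 10 levels were Gnaz, a G protein subunit (r 0.996), Zkscan3 (0.994) and Ap3b2 (0.994).

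RefSeq lists 2 start regions for Meg3, and the first is shown because it holds a full cAMP response element, which few promoters do. It spans chr12:109540746-109541045 (RefSeq, GRCm38.p6, plus strand), 250 bases before the start and 50 after, with that element, TGACGTCA, and TATAAA matches in capitals.
Meg3 promoter: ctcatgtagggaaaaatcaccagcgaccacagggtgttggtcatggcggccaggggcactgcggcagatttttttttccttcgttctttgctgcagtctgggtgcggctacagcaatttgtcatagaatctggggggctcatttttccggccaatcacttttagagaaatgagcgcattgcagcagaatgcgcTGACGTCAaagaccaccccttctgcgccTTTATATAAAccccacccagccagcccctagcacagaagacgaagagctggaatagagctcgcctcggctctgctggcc
Both strands were searched. TGACGTCA begins 57 bases before the start and was found in 1.79% of 32851 promoters of the same length, and TATAAA was found in 13.6%. TATAAA matched once on each strand, at 25 and 29 bases before the start, and these matches overlap. The other Meg3 start region (chr12:109545148-109545447) held neither. A promoter was matched for 7 of the 8 members.

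Malat1 was abundant in every class. It gave 1114200 and 1011351 UMIs in beta cells, which is 1.38% and 1.22% of their UMIs. Its levels were 19301 and 21112 CPM in beta cells, 21039 and 21262 in alpha cells, 30520 and 27747 in delta cells and 29924 and 38017 in gamma cells. The log2 ratio of the genotypes was 0.13 in beta cells, 0.02 in alpha cells, -0.14 in delta cells and 0.35 in gamma cells. Under all-UMI scaling the beta ratio turned to -0.19, so its direction depends on how insulin is counted.

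A small set of beta droplets had nearly no Malat1. Fewer than 10% of the class level was found in 39 wild type (1.22%) and 12 transgenic (0.457%) beta cells, and 31 and 9 of these were as low in Meg3. Malat1 in them was 8.10 and 12.4 per 10000 UMIs outside the hormone genes, against 285 and 310 in the beta cells low in neither. They had a median of 3194 and 3880 UMIs outside the hormone genes and 1207 and 1357.5 genes, against 3461 and 3431 genes in the others. Their mitochondrial share was 0.437% and 0.280% (3.24% and 2.03% in the others), and their insulin share was 63.2% and 65.9% (50.3% and 60.5%). These droplets were low in Malat1 and mitochondrial RNA, mostly low in Meg3 as well, and above the others in insulin share. Without them no count of members past the fold thresholds changed.

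**Figure D4:**
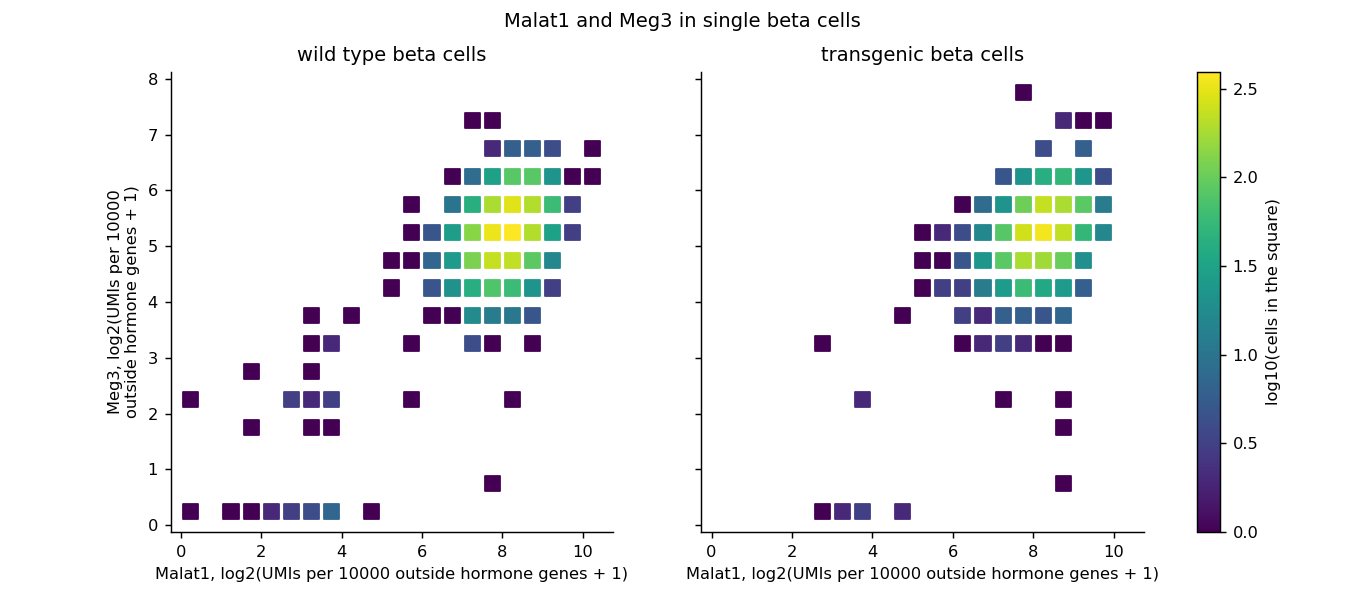
Meg3 against Malat1 in single beta cells of the wild type (left) and transgenic (right) library, both as log2(UMIs per 10000 outside the hormone genes + 1). Each square is a bin of both axes coloured by log10 of its cells; most cells form 1 group at the upper right, and a sparse tail at the lower left holds the droplets low in both RNAs (31 wild type and 9 transgenic).

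Malat1 and Meg3 varied together among beta cells. Pearson r of their log values was 0.60 over 3194 wild type and 0.46 over 2624 transgenic cells, which share a library and vary in depth and RNA content. The pairs that involve Snhg11, A330069E16Rik, Gm30173 or Gm12216 reached at most 0.07 in size in both libraries, as sparse counts can give. Low Meg3 without low Malat1 was seen in 2 and 7 gamma cells, 2 and 3 beta cells and 1 wild type alpha cell. In these gamma cells Malat1 was 808 and 682 per 10000, against 443 and 558 in gamma cells low in neither.

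Neat1 (chr19:5824708-5845478, minus strand) lies 22036 bases from Malat1 and was higher in beta cells than in the other endocrine classes on the CPM scale. Its levels were 323 and 295 CPM in beta cells, 136 and 141 in alpha cells, 119 and 134 in delta cells and 225 and 240 in gamma cells. Alpha cells were 2.38-fold and 2.09-fold below beta cells, and delta cells 2.72-fold and 2.20-fold. Alpha and delta cells did not differ beyond counting error in either library. This order depends on the scaling. As shares of all UMIs, Neat1 was at 59.0% and 81.7% of the beta level in alpha cells, at 73.0% and 109.8% in delta cells and at 97.8% and 121% in gamma cells, so the beta excess was under 2-fold or turned around. At least 5 UMIs were found in 54.5% and 49.8% of beta cells and in 15.5% and 12.9% of alpha cells.

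The beta log2 ratio of Neat1 was -0.13 (-0.16 to -0.10), and the other endocrine classes lay between 0.05 and 0.17. Within beta cells Neat1 varied more with insulin share than between genotypes. From the lowest to the highest insulin bin, wild type cells went from 610 to 160 non-hormone CPM, and transgenic cells from 697 to 215. Over the mitochondrial bins it went from 261 to 664 and from 344 to 709. At equal insulin share the transgenic level was the higher in 5 of 5 bins (log2 ratio 0.06 to 0.43), and at equal mitochondrial share in 5 of 5 (0.02 to 0.40). The interval included 0 in insulin bins 2 (-0.02 to 0.13) and 5 (-0.17 to 1.09). It also did in mitochondrial bins 4 (-0.08 to 0.11) and 5 (-0.14 to 0.32), and lay above 0 in the other bins of both measures. The sign of the pooled ratio thus turned once cells of like insulin or mitochondrial share were compared. In bins of depth it was higher in 1 of 5.

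The protein partners of the nuclear bodies differed by less than 1.5-fold between genotypes in beta cells. Of 10 paraspeckle proteins, 4 were higher and 6 lower in transgenic beta cells, with a median log2 ratio of -0.04 against -0.01 for all genes and none past 1.5-fold. The farthest were Nudt21 (0.23) and Cpsf7 (-0.17), both subunits of the cleavage factor that chooses poly(A) sites. In alpha cells 9 of the 10 were higher (median 0.14 against 0.01 for all genes), among them Hnrnpk (0.26, 0.17 to 0.35) and Sfpq (0.27, 0.10 to 0.44), both RNA-binding proteins. In gamma cells Tardbp, the RNA-binding protein TDP-43, was past 1.5-fold lower (-0.60, -1.01 to -0.20). Of 18 speckle and splicing genes, 7 were higher and 11 lower in beta cells, with a median of -0.04, from Srsf7 (-0.23) to Son, a core speckle protein (0.31). Beside Neat1, the antisense gene Frmd8os lies 145 bases away and gave 104 and 165 beta UMIs (0.94).

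Gm30173 (chr3:52516964-52550219, plus strand, 5 exons) was a beta-rich transcript, past 1.5-fold higher in transgenic beta cells. Its beta level was 22.6 CPM wild type and 41.2 CPM transgenic, from 1307 and 1975 UMIs, 1.82-fold higher (log2 ratio 0.86, 0.76 to 0.97). Alpha cells held 22 and 19 UMIs, 3.23 and 2.16 CPM, delta cells 3 and 3, gamma cells 15 and 10 and non-endocrine cells 2 and 3. The share of beta cells with a UMI, after thinning, was 5.67% (4.89 to 6.53) and 11.3% (10.1 to 12.6), and 30.3% and 46.6% without thinning. No non-endocrine cell held one after thinning. Scaled to all UMIs the ratio was 0.55, below 1.5-fold but of the same sign, and in cells with a Y-linked UMI and no Xist it was 0.89.

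Gm30173 was followed across beta cells as Neat1 was, and it ran the other way. From the lowest to the highest insulin bin, wild type cells went from 31.0 to 53.2 non-hormone CPM and transgenic cells from 34.2 to 73.0. The top insulin bin of the wild type holds 8 UMIs in 18 cells. Up to 70% insulin, the wild type level stayed between 31.0 and 34.4 while the transgenic level reached 65.0. The transgenic level was higher in 5 of 5 insulin bins (log2 ratio 0.14 to 0.94), in 5 of 5 depth bins and in 4 of 5 mitochondrial bins. The exception was the top mitochondrial bin, with 29 transgenic cells and 3 UMIs (-0.91). The genes most like it over the 10 levels were Ins2 (r 0.98), the histone gene Hist1h4h (0.98) and Ins1 (0.98). Beta cells were defined by their insulin share, so any beta-rich transcript resembles insulin over these levels. Among single beta cells, r of Gm30173 with insulin share was 0.007 in the wild type and 0.093 in the transgenic library.

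Insulin RNA was also counted in the other classes, so the Gm30173 counts outside beta cells were set beside those of insulin. As a percent of the beta share of all UMIs, Gm30173 in alpha cells was 20.03% (12.6 to 30.3) wild type and 8.94% transgenic, and Ins1 with Ins2 were 6.92% and 4.90%. In gamma cells the values were 37.9% and 20.1% for Gm30173 and 12.7% and 7.43% for insulin. Gm17767 in alpha cells was 7.51% (3.60 to 13.8) and 9.40% (5.57 to 14.9), so it lay nearer to insulin than Gm30173 in the wild type library only. Nearby genes of Gm30173 were Foxo1, a transcription factor of insulin signalling 163743 bases to the left (59.5 and 50.7 beta CPM), and Gm2447, a long noncoding RNA 189497 bases to the right on the same strand. Gm2447 gave 70 and 113 beta UMIs (log2 ratio 0.96, 0.52 to 1.41).

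Gm17767 (chr1:51507086-51596718, minus strand) was found mostly in beta cells in both libraries. Beta cells held 1584 and 1780 UMIs, 27.4 and 37.2 CPM, while alpha cells held 10 and 18, delta cells 0 and 4, gamma cells 6 and 5 and non-endocrine cells 2 and 3. The 0 in wild type delta cells allows up to 2.48 CPM. Alpha cells lay 18.7-fold and 18.2-fold below beta cells. The beta log2 ratio was 0.44 (0.34 to 0.54), below 1.5-fold, and 0.12 when scaled to all UMIs.

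Gm17767 was lower at high insulin share, unlike Gm30173. Wild type cells went from 44.5 to 6.66 non-hormone CPM over the insulin bins, with 1 UMI in 18 cells behind the last value. Transgenic cells went from 71.6 to 40.2. At equal insulin share the transgenic level was higher in 5 of 5 bins (0.46 to 2.59). The highest ratio is that of the top bin, with 1 wild type and 60 transgenic UMIs (interval 0.06 to 7.92). From the first to the last mitochondrial bin the wild type level went from 19.4 to 59.99. The transgenic level rose from 44.6 in bin 1 to 76.4 in bin 4. It was 44.8 in the last bin, which held 11 UMIs in 29 transgenic cells. The top mitochondrial bin had a ratio of -0.42, and the other 4 were above 0. The genes most like it were Hax1 (r 0.97), the endoplasmic reticulum degradation gene Derl3 (0.97, beta log2 ratio 0.59) and Zc3h3 (0.95). Nabp1, the next gene at 28661 bases, had 31.8 and 29.8 CPM in beta cells and 5.28 and 4.88 CPM in alpha cells. Wild type non-endocrine cells held 25.1 CPM of Nabp1, so it was not beta-rich against every class.

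**Figure D5:**
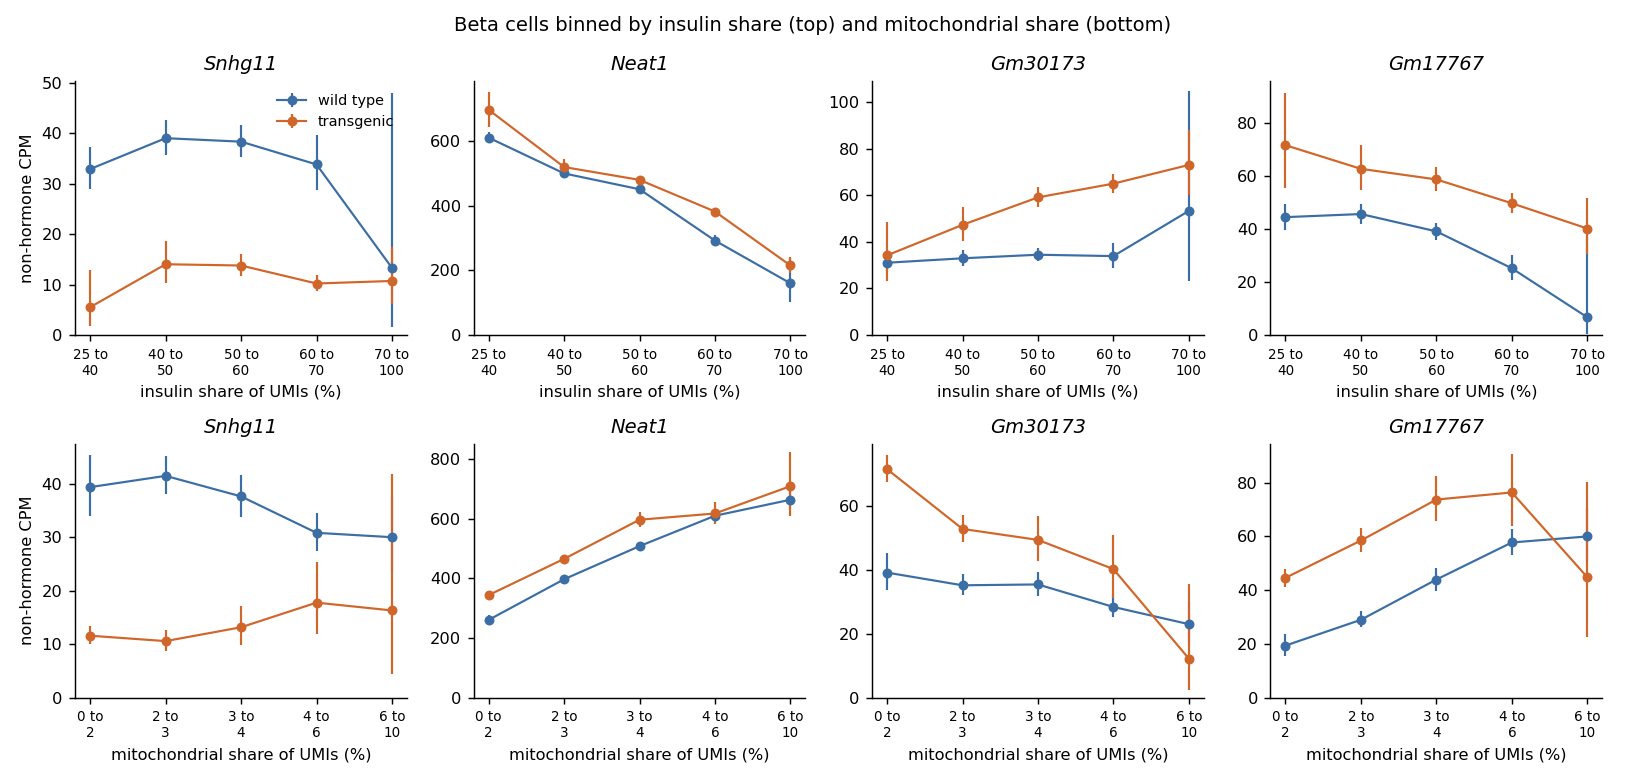
Level (non-hormone CPM) of 4 members in beta cells binned by insulin share (top row) and mitochondrial share (bottom row), in percent of UMIs, wild type blue and transgenic orange. Points are 1 library each with exact Poisson 95% intervals, the ends of the ranges hold few cells (18 wild type cells above 70% insulin, 29 transgenic cells in the top mitochondrial bin); Neat1 is lower in the top insulin bin and higher in the top mitochondrial bin than in the first bin of each, in both libraries.

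The start regions of both beta-rich members are shown because they shared a pattern across cell types. Each is 250 bases before to 50 after the start (RefSeq, GRCm38.p6), Gm30173 at chr3:52516714-52517013 on the plus strand and Gm17767 at chr1:51596669-51596968 on the minus strand. Matches to TAAT, the core of homeodomain sites such as those of Pdx1 and Nkx6-1, are in capitals and read ATTA, since all of them lie on the other strand.
Gm30173 promoter: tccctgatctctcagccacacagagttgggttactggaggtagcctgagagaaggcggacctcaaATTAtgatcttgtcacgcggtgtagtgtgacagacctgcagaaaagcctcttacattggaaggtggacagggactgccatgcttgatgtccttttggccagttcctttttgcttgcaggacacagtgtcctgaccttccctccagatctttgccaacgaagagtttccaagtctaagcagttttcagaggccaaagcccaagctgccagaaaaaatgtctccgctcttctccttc
Gm17767 promoter: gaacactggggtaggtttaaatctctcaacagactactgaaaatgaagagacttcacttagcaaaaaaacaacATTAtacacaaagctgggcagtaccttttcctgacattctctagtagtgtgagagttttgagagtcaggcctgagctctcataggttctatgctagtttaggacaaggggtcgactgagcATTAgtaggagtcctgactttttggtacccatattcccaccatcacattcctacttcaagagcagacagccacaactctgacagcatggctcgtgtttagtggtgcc
Gm30173 held 1 match and Gm17767 held 2, and 58.0% of all promoters hold at least 1. The E-box CAGATG was found in neither, and in 17.2% of all promoters.

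A330069E16Rik (chr2:91237146-91238352, plus strand) was a rare transcript concentrated in few cells. Its levels were 8.52 and 7.18 CPM in beta cells (492 and 344 UMIs), 12.9 and 14.2 in alpha cells, 16.5 and 6.00 in delta cells (20 and 9 UMIs) and 17.1 and 20.5 in gamma cells. The share of beta cells with no UMI was 91.2% in the wild type and 90.8% in the transgenic library, yet the 1% of beta cells with the most held 47.6% and 34.9% of all its UMIs. The richest cell held 19 UMIs in the wild type and 12 in the transgenic library. The variance over beta cells was 6.62 and 2.07 times that of Poisson counts at each cell's depth.

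With so few cells behind it, the ratio of A330069E16Rik moved with the cells chosen. The alpha-cell log2 ratio was 0.14 (-0.27 to 0.55) over all alpha cells and 1.01 (0.47 to 1.56) in those with a Y-linked UMI and no Xist. The beta ratio was -0.25 (-0.45 to -0.05). The 33 UMIs of wild type non-endocrine cells lay almost wholly in 2 cells, which held 90.9% of them. Ddb2, a DNA damage sensor, lies 164 bases away on the opposite strand and gave 3.10 and 2.48 beta CPM. The promoter window of A330069E16Rik held 4 GC boxes (GGGCGG, both strands searched), a motif found in 35.7% of promoters.

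Gm12216 (chr11:53783418-53859256, minus strand) was highest in the non-endocrine cells among the 5 classes. Its non-endocrine level was 38.5 and 21.8 CPM, from 95 and 49 UMIs, 8.26-fold and 6.87-fold above beta cells. Endothelial cells held 70 of the 95 and 21 of the 49 UMIs, at 82.7 and 92.9 CPM. The transgenic non-endocrine total was 1.76-fold lower, and these cells held 25 endothelial cells against 103 in the wild type. Within endothelial cells the log2 ratio was 0.17 (-0.61 to 0.89). The 48 transgenic endocrine cells below every hormone threshold also held a high level, 41.0 non-hormone CPM (25.4 to 62.7, 21 UMIs), against 12.7 (25 UMIs) in the 124 wild type ones. GENCODE lists Gm12216 as protein coding and RefSeq as a long noncoding RNA.

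In endocrine cells Gm12216 differed in opposite directions. The beta level was 4.66 and 3.17 CPM (269 and 152 UMIs, log2 ratio -0.55, -0.85 to -0.26), and the alpha level was 7.33 and 12.7 CPM (50 and 112 UMIs, 0.79, 0.30 to 1.31). Gamma cells gave 12.2 and 16.6 CPM (30 and 30 UMIs). The interferon-induced transcription factor gene Irf1, 5044 bases away on the opposite strand, gave 77.4 and 77.8 CPM in beta cells (0.01) and 34.9 and 51.8 CPM in alpha cells (0.57, 0.34 to 0.80). Both genes were higher in transgenic alpha cells. Whether counting kept the strands of this pair apart is not stated in the labels. The genes most like Gm12216 were Rbms1 (r 0.98), Arl6ip5 (0.97) and Prkcdbp (0.96).

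The mix of non-endocrine cells differed between libraries, and the Malat1 ratio over all of them was wider than within its 3 main cell types. Malat1 was 26273 and 15566 CPM over all non-endocrine cells (log2 ratio -0.76), but -0.25 in endothelial cells, -0.13 in macrophages and -0.13 in B cells. Its level was 51367 and 43153 CPM in endothelial cells, 20524 and 18801 in macrophages and 12066 and 10996 in B cells. Transgenic non-endocrine cells held 25 endothelial, 55 macrophage and 56 B cells, against 103, 67 and 21 in the wild type. These types do not make up all 164 transgenic and 199 wild type cells. Summed acinar markers were 3807 CPM in transgenic and 4.46 CPM in wild type non-endocrine cells, and T cell markers 79.2 and 6.08 CPM. Neat1 was 231 and 149 CPM over all (-0.63), 383 and 283 in endothelial cells (-0.43), 273 and 262 in macrophages (-0.06) and 124 and 74.5 in B cells (-0.73, -1.40 to -0.05, from 31 and 54 UMIs). The part of the cell mix in these ratios was not tested.

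Other long noncoding RNAs with at least 50 UMIs in beta cells were compared between genotypes from 2 lists. Past 1.5-fold were 1 of 5 small nucleolar RNA hosts and 3 of 9 others, against 10.3% of all genes. Of 18 listed small nucleolar RNA hosts 5 were analysed here, 2 higher and 3 lower in the transgenic library, with a median log2 ratio of -0.06. Snhg18 was the 1 past 1.5-fold (0.59, 32.8 and 49.5 CPM), and Snhg20 was the lowest (-0.16). None of the 5 was as far from 0 as Snhg11. Of 18 other long noncoding RNAs 14 were analysed and 9 had at least 50 UMIs, 6 higher and 3 lower, with a median of 0.07. Those past 1.5-fold were Xist (8.80), its antisense partner Tsix (2.52, 12 and 57 UMIs) and Mirt1 (0.82, 26 and 38 UMIs). Kcnq1ot1, an imprinted antisense RNA, was even (-0.03).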

How the data were processed

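The deposited values were raw UMI counts per gene and cell from the authors' filtered matrices, per the file values. Reads were handled with Cell Ranger 2.1.0 and STAR 2.5.1b on mm10, per the submitters' processing notes. The annotation release is not given in the sources used here. Cells with at least 500 genes, at least 1000 UMIs and at most 10% mitochondrial UMIs were kept. Scrublet's automatic threshold marked 2 and 6 cells, so the 4% of cells with the highest scores were removed from each library. Counts were summed by class and library and scaled by TMM. Intervals are exact Poisson, Clopper-Pearson (shares) or conditional binomial (ratios). A count of 0 allows 3 counts. Ratios were read at 1.5-fold with at least 50 UMIs, and at 2-fold between classes. The ratio and its interval were tested on simulated Poisson counts. These had no added spread between cells or libraries, so they check the calculation for counting error only. With 1 library per genotype no test across samples was possible.

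Named genes were the members, the 3 genes most alike (at least 100 UMIs and 20 CPM in a class sum, pseudocount 1), up to 2 extremes of each list, and genes overlapping or next to a member. Kcnq1ot1, Mirt1, H2-Ab1, Hnrnpk, Sfpq and Tardbp fall outside this rule and were named after their values were seen. The members and lists were chosen with earlier results of these data known. Positions and transcripts come from GENCODE M21 (GRCm38) and promoters and the microRNA from RefSeq (GRCm38.p6). Python 3.11.15, numpy 2.4.6, scipy 1.17.1, pandas 2.3.3, scanpy 1.11.5 and matplotlib 3.10.9 were used.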

Additional observations from a re-analysis of the deposited data

Results flagged for a closer look

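Gm12216 moved in opposite directions in 2 cell classes of the same pair of libraries: its log2 ratio of transgenic over wild type was -0.55 in beta cells and 0.79 in alpha cells. Neither counting interval reached 0. The difference between the classes was not tested, since each genotype has 1 library.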

How the results depend on the processing

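No paired analysis was possible because each genotype has 1 library and no result comes from a test. Ratios were recomputed under other scalings, cell filters, doublet removal, hormone thresholds, class rules and averages per cell, and, chosen after the data were seen, within mitochondrial bins, without droplets low in Malat1 and in cells with a Y-linked UMI and no Xist. Counts of members past the fold changed in 12 of 67 alternatives, in 5 of them by more than 1.5 times. An unchanged count can hide a change of members. With total UMIs in beta cells, Gm30173 (0.55) fell below 1.5-fold and Gm12216 (-0.87) passed it. In gamma cells the count was 0 with cells of more than 1 hormone in their leading class. In delta cells it was 2 with thresholds 1.5 times as high and 2 without a minimum of UMIs. In non-endocrine cells it was 6 with every cell below the thresholds included and 7 without a minimum of UMIs. The smaller changes were 6 between alpha and beta cells with total UMIs or TMM within each class, 4 in non-endocrine cells with total UMIs, UMIs outside hormone genes or Y-linked cells, and 3 in beta and alpha cells with Y-linked cells. Of the ratios past 1.5-fold with at least 50 UMIs, 2 changed sign. They were Gm12216 in non-endocrine cells (0.27 with every cell below the thresholds included) and Gm30173 in the top mitochondrial bin of beta cells (-0.91). Smaller ratios, and those from fewer UMIs, turned more often. Non-endocrine A330069E16Rik went from -2.91 (33 and 4 UMIs) to 1.70 in cells with a Y-linked UMI and no Xist. Over whole classes 37 of 436 values had the other sign, 7 of them for ratios with at least 50 UMIs and an interval clear of 0 (Malat1 in beta and alpha cells and Gm12216). Within bins of beta cells 31 of 119 did, among them Neat1, A330069E16Rik, Gm17767 (-0.42) and Gm12216 (1.37 in the top mitochondrial bin). With every cell below the thresholds included, non-endocrine Snhg11 was -0.87, Gm30173 -1.15 and Gm17767 -2.47, while without those cells each was above 0 from few UMIs. The cause was not tested. Over whole classes, Snhg11 ranged from -1.96 to -1.56 in beta cells, from -0.85 to -0.68 in alpha cells and from -1.20 to -0.86 in delta cells, and Gm30173 in beta cells from 0.55 to 0.91. Depth limits the rare members, whose delta and gamma values rest on few UMIs.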
